A study of Saccharomyces cerevisiae with 4 samples.

Results

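The genes described are those of the yeast proteasome. They were chosen by standard name in the reference gene table, as PRE, PUP, RPN or RPT followed by a number, together with SCL1. The table of 6172 genes and unmatched features held 33 such genes, 14 of the core particle and 19 of the regulatory particle. RPN4 fits the same naming pattern but encodes the transcription factor that drives these genes, and it is kept apart. All 33 genes and RPN4 had a value on all 4 arrays, as did 76.6% of the whole table, so no member was lost to missing values.

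The proteasome degrades proteins that have been tagged with chains of ubiquitin. Its core is a barrel of stacked rings, in which outer alpha rings guard the entrance and inner beta rings carry the protease sites. The regulatory particle caps the barrel: its lid and base bind the tagged protein and remove ubiquitin, and a ring of ATPases in the base unfolds the chain and feeds it into the core. In yeast the genes for both particles are switched on by Rpn4, which the proteasome itself destroys, so that a loss of proteasome activity raises Rpn4 and with it the supply of subunits.

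Each of the 4 two-colour arrays set RNA of Saccharomyces cerevisiae cells exposed to zymolyase against RNA of untreated cells. All cells, the untreated ones included, were rlm1 mutants, which lack Rlm1, the transcription factor that the cell wall integrity kinase cascade activates. Cells grew on YEPD at 24 °C, a culture was split, one part received zymolyase at 5 units per ml, an enzyme preparation that digests wall glucan, and cells were collected at 3 hours. The series text describes 2 cultures, each measured on an array pair with the dyes exchanged, so the 4 arrays hold 2 independent comparisons. On arrays 1 and 3 the zymolyase sample was labelled with Cy3, and on arrays 2 and 4 with Cy5. RLM1 itself had no value on any array, so the mutation was not checked here.

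The deposited values are log ratios, taken as base 2, and no source used here states their log base or numerator. Arrays 2 and 4 were turned (multiplied by -1) so that zymolyase lies on one side throughout. As deposited, all 9 genes with a log2 size of at least 1 on every array had opposite signs in the opposite dye orientations, and none kept one sign. Over all features the arrays do not settle the turning: after it, arrays of opposite orientation correlated between -0.14 and 0.046 (Pearson, across features, as a description), and arrays of the same orientation at 0.60 (1 and 3) and 0.44 (2 and 4). The ratio was then read as zymolyase over untreated, a likely but not settled direction. It places GPD1 of glycerol synthesis, an osmotic stress gene, on the zymolyase side with a mean of 1.84, and the stress gene HSP12 with a mean of 2.75. The opposite reading would turn the sign of every value given. Array 2 had values for 4815 features against 5545 to 5659 on the others and a spread of 0.63 (SD over features) against 0.32 to 0.35.

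No proteasome gene passed the test for a change with zymolyase. Among all 4730 genes tested with limma on culture means (Benjamini-Hochberg adjusted p under 0.05 under both possible pairings of arrays to cultures), 2.35% were higher and 0.803% lower, or 111 and 38 genes. With each array centred on its median that split was 83 and 14, and 49 and 7 with the arrays also scaled to one spread. At an unadjusted p under 0.05 none of the 33 members passed either, against 12.5% of all genes. A fit of the 4 arrays with a dye term also called no member after adjustment, against 77 of all 4730 genes. Before adjustment it called 1 member, PRE10, against 570 of all genes. The means of the 33 members ran from -0.31 to 0.17 on the log2 scale, which is 0.804-fold to 1.12-fold. The smallest adjusted p was 0.407 (limma). Each gene had 1 residual degree of freedom. In this fit limma pooled the spread fully, so all genes have the same standard error, 0.16. A mean therefore had to exceed 0.51 in size to be called. Over the members the 95% intervals reached from -0.63 to 0.48, or 0.645-fold to 1.40-fold. Single changes of that size were within the pooled error. The intervals do not follow a gene's own spread. SDs over the 4 arrays, which include dye differences, ran from 0.038 (RPN12) to 0.92 (PRE3). For members with a large spread, changes beyond these bounds are therefore not excluded.

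Of the 33 means, 23 lay below 0 (69.7%), against 52.6% of all genes tested. Their median was -0.065, and that of all genes tested was -0.012. With the arrays centred and scaled to one spread, 19 of the 33 means lay below 0. The core median was then -0.0255 and the regulatory particle median -0.0144. The share of all genes below 0 under that scaling was not computed. The lean also depended on which arrays were used. Over the 3 arrays other than array 2 the members' median was 0.0099 and 14 of the 33 means lay below 0. For all 4730 genes tested the median over those arrays was -0.026, and 2698 means lay below 0. Weighted by culture, 12 member means lay below 0 without array 2 and 15 without array 4, but 25 without array 1 and 24 without array 3. The matching counts of all genes were not computed. With an array left out the dye orientations are not balanced, so these counts mix treatment and dye differences. Members were positive on all 4 arrays in 0 cases (7.99% of all genes) and negative on all 4 in 3 cases (8.79% of all genes), namely PRE10, RPN10 and RPN12. The means varied less among the members than among all genes, with an SD of 0.13 against 0.24.

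**Figure D1:**
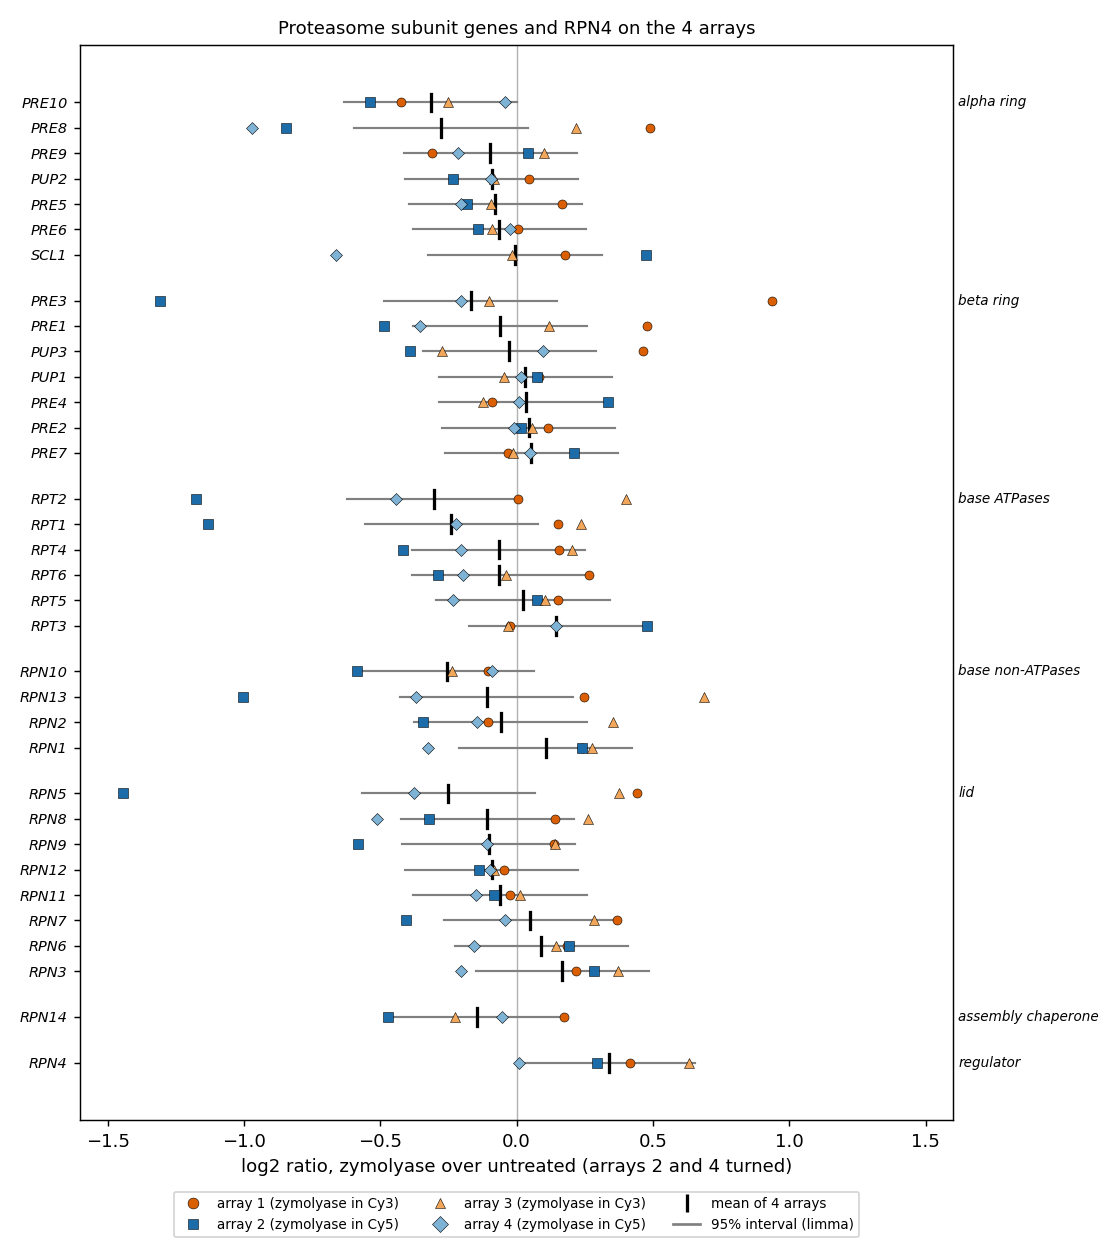
Log2 ratio of zymolyase over untreated (x axis) for the 33 proteasome genes and RPN4 (rows, by particle and ring), with a symbol per array, a black bar at the mean of the 4 arrays and a grey line for the 95% interval from limma. All 33 intervals cross 0, and the arrays with zymolyase in Cy5 (blue) hold most of the lowest values.

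The core particle had a median of -0.062 over its 14 genes, with 10 means below 0 and 4 above. By ring the alpha genes had 7 of 7 means below 0, with a median of -0.091, and the beta genes 3 of 7, with a median of 0.032. PRE10, an alpha ring gene, had the lowest mean of all members. It read -0.42, -0.54, -0.25 and -0.044 on arrays 1 to 4, a mean of -0.31 ± 0.21 (SD, n = 4 arrays; limma adjusted p = 0.407). It was low on every array, though array 4 lay close to 0. PRE8, also of the alpha ring, read 0.49, -0.85, 0.22 and -0.97, a mean of -0.28 ± 0.74. Its values split by dye orientation, positive with zymolyase in Cy3 and far below 0 with it in Cy5.

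The other alpha genes lay nearer to 0. The mean was -0.097 for PRE9, the alpha subunit that cells can live without, -0.091 for PUP2, -0.078 for PRE5, -0.063 for PRE6 and -0.0062 for SCL1. SCL1 reached that mean from values that disagreed, 0.18, 0.48, -0.016 and -0.66 on arrays 1 to 4. PRE6, in contrast, stayed between -0.14 and 0.0059.

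In the beta ring, PRE3, PUP1 and PRE2 encode the subunits with protease sites (caspase-like, trypsin-like and chymotrypsin-like). PRE3 read 0.94, -1.31, -0.10 and -0.21 on arrays 1 to 4, a mean of -0.17 ± 0.92. This was the largest SD of any member: arrays 1 and 2 gave opposite extremes, and arrays 3 and 4 values near 0. The other catalytic genes were steady. PRE2 read 0.11, 0.016, 0.058 and -0.0096, a mean of 0.045 ± 0.054, and PUP1 had a mean of 0.032 ± 0.060. PRE3 thus stood apart from PRE2 and PUP1 in its spread and not in any tested change.

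The beta genes without a protease site had means from -0.061 to 0.054. PRE7 had the highest mean of the core, from -0.031, 0.21, -0.013 and 0.050 on arrays 1 to 4 (0.054 ± 0.11). PRE4 read -0.089, 0.34, -0.12 and 0.0091, a mean of 0.033 ± 0.21. Both were positive on arrays 2 and 4 and negative on arrays 1 and 3, the reverse of PRE8. PRE1 had a mean of -0.061 and PUP3 of -0.027.

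The regulatory particle had a median of -0.065 over its 19 genes, with 13 means below 0 and 6 above. The base ATPase genes RPT1 to RPT6 had 4 of 6 means below 0 and a median of -0.065. RPT2, whose product helps to open the core's gate, had the lowest mean of the particle. It read 0.0065, -1.18, 0.40 and -0.44 on arrays 1 to 4, a mean of -0.30 ± 0.68 (limma adjusted p = 0.443). Array 2 lay farthest from 0. The mean of the other 3 arrays was -0.011, but that mean weighs zymolyase in Cy3 more than in Cy5. RPT1 behaved alike, at -0.24 over all arrays and 0.056 without array 2. RPT3 was the highest ATPase gene, at -0.023, 0.48, -0.031 and 0.15, a mean of 0.14 ± 0.24. RPT4 (-0.065), RPT6 (-0.065) and RPT5 (0.023) had means near 0.

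Among the other base genes, RPN10 and RPN13 encode ubiquitin receptors, and RPN1 and RPN2 the large scaffold subunits. RPN10 read -0.10, -0.59, -0.24 and -0.090 on arrays 1 to 4, a mean of -0.25 ± 0.23 (limma adjusted p = 0.567). It was below 0 on every array and lowest on array 2, with a mean of -0.14 without it. RPN13 split by dye orientation, at 0.25, -1.004, 0.69 and -0.37 on arrays 1 to 4, a mean of -0.11 ± 0.74. RPN1 read 0.24, 0.24, 0.28 and -0.33, a mean of 0.11 ± 0.29, so that array 4 alone lay below 0. RPN2 had a mean of -0.059.

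The 8 lid genes had 5 means below 0 and a median of -0.076. RPN5, a structural subunit of the lid, read 0.44, -1.44, 0.38 and -0.38 on arrays 1 to 4, a mean of -0.25 ± 0.88. Without array 2, and so with the dye orientations unbalanced, its mean was 0.15. RPN3, another structural subunit, had the highest mean of all members, from 0.22, 0.28, 0.37 and -0.20 (0.17 ± 0.26; limma adjusted p = 0.794). It was positive on all arrays except array 4. RPN11 encodes the enzyme that removes ubiquitin chains from substrates, and its values stayed between -0.15 and 0.012, with a mean of -0.061 ± 0.071. RPN8, which encodes the partner of Rpn11, had a mean of -0.11. The structural genes RPN9, RPN12, RPN7 and RPN6 had means of -0.10, -0.091, 0.050 and 0.090. RPN12 varied least of all members, between -0.14 and -0.047. RPN14, which encodes a chaperone of base assembly and no subunit of the finished particle, had a mean of -0.14 ± 0.27.

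Set against each other, the core and the regulatory particle had almost the same median over the 4 arrays, -0.062 and -0.065, a difference of 0.0031. The single arrays did not show this likeness. The difference, core minus regulatory particle, was -0.054 on array 1, 0.18 on array 2, -0.27 on array 3 and 0.13 on array 4. The regulatory particle was thus the higher of the pair on both arrays with zymolyase in Cy3 and the lower on both with zymolyase in Cy5. No test was run on these medians, since the members were chosen with results known.

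**Figure D2:**
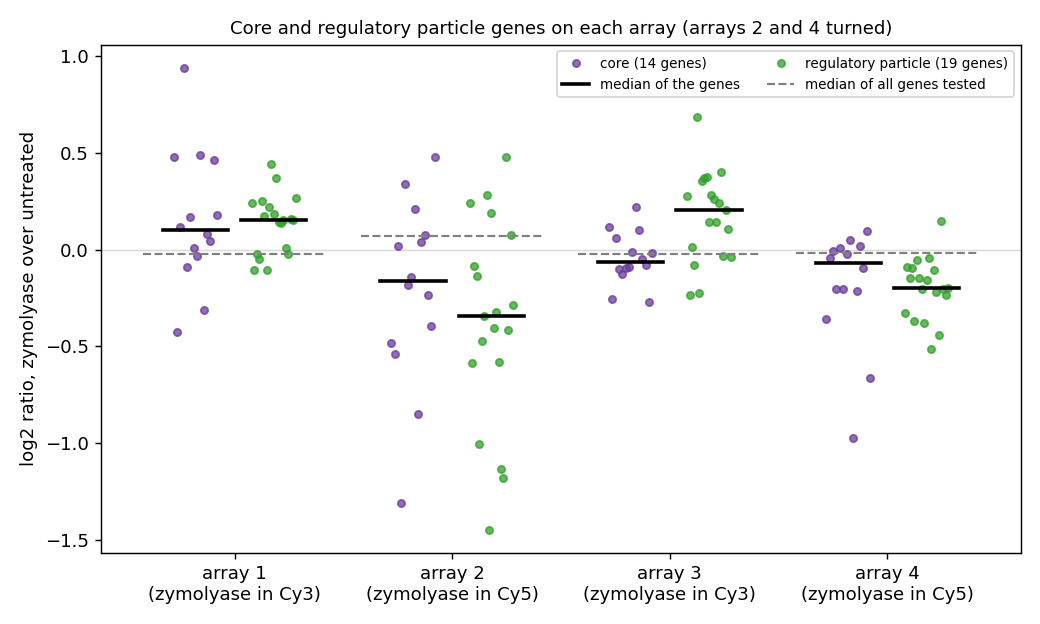
Log2 ratio of zymolyase over untreated (y axis) of each core gene (purple) and regulatory particle gene (green) on each array, with a bar at each group's median and a dashed line at the median of all genes tested. The regulatory particle medians alternate, at 0.15, -0.34, 0.20 and -0.20 on arrays 1 to 4, while the core medians were 0.098, -0.16, -0.064 and -0.069.

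Dye orientation moved with the regulatory particle values. Their median was 0.16 over the arrays with zymolyase in Cy3 and -0.24 over those with zymolyase in Cy5; the core medians were 0.027 and -0.12, and those of all genes tested -0.021 and 0.013. Its part in the medians over the 4 arrays was not tested. On arrays 1 and 3 alike, 14 of the 19 genes were positive. On array 2, 5 were, and on array 4, 1 was, RPT3. Of all 4730 genes tested, 2161, 2528, 2190 and 2231 were positive on arrays 1 to 4. The strict alternation, positive on arrays 1 and 3 and negative on arrays 2 and 4, was shown by 8 regulatory particle genes and 2 core genes (12.7% of all genes tested). These were RPT1, RPT2, RPT4, RPN5, RPN7, RPN8, RPN9 and RPN13, with PRE1 and PRE8. The reverse alternation was shown by RPT3, PRE4 and PRE7 (15.8% of all genes tested).

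In the mean of the ratios as deposited, without turning, an effect of the treatment cancels and a difference between the dyes remains. On that scale 18 of 19 regulatory particle genes had a mean above 0, with a median of 0.18, and 9 of 14 core genes, with a median of 0.057. The median of all 4730 genes tested was -0.011, with 2264 means above 0. The same limma test on the unturned ratios called 4.55% of all genes higher and 2.14% lower. It called 5 members higher and none lower: RPN5 (0.66, adjusted p = 0.00324), PRE8 (0.63, 0.0055), PRE3 (0.59, 0.0115), RPN13 (0.58, 0.0136) and RPT2 (0.51, 0.0341). Of the 4 arrays, array 2 had the value farthest from 0 in RPN5, PRE3, RPN13 and RPT2, and array 4 in PRE8. In the fit with a dye term the dye coefficient passed in none of the 33 members and in 20 of all genes. Were the ratios turned by the authors before deposit, these 5 would be the genes called higher with zymolyase, or lower under the opposite reading of the numerator.

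**Figure D3:**
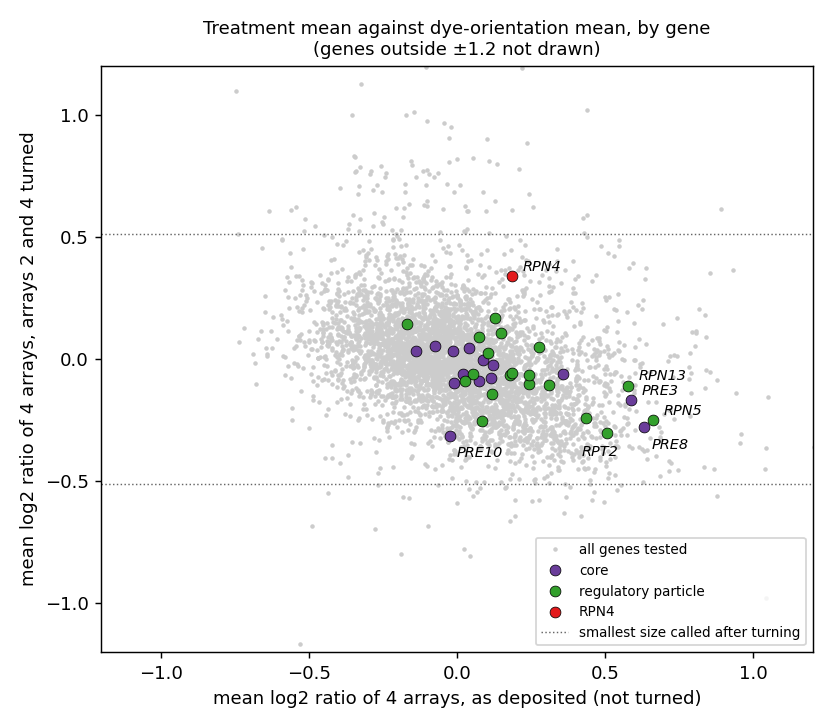
Mean log2 ratio of the 4 arrays after turning arrays 2 and 4 (y axis) against the mean as deposited (x axis) for each gene, with core genes in purple, regulatory particle genes in green, RPN4 in red, all genes tested in grey and dotted lines at the smallest size called, 0.51. The members lie inside the dotted lines but stretch to the right, up to 0.66 for RPN5; 21 genes lie outside the axes.

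RPN4, the regulator, read 0.41, 0.29, 0.63 and 0.0089 on arrays 1 to 4, a mean of 0.34 ± 0.26 (SD, n = 4 arrays). All 4 values lay above 0, although array 4 was at the line, and no proteasome member had as high a mean. The gene did not pass the limma test (adjusted p = 0.355), and its 95% interval without adjustment ran from 0.020 to 0.66. A mean at least as high was found in 250 genes, 5.29% of those tested. Its mean was 0.52 on the arrays with zymolyase in Cy3 and 0.15 on those with it in Cy5.

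Genes that act with the proteasome gave no call either. Of the 9 assembly chaperone genes listed, 7 had a value on all arrays, none passed, and 4 means were above 0. UMP1, which encodes a chaperone that matures the core and is itself degraded by it, was lowest at -0.34 ± 0.48 (limma adjusted p = 0.343). It read -0.20, -1.03, -0.21 and 0.069 on arrays 1 to 4, and its mean without array 2 was -0.11. PBA1 followed at -0.16. HSM3 and TMA17 were highest, at 0.062 and 0.049, and TMA17 was positive on all arrays except array 2. Of the associated proteins 4 of 7 were tested and none passed. SPG5, which encodes a proteasome regulator of stationary phase, was highest at 0.40 ± 0.33 (limma adjusted p = 0.21), followed by UBP6, a deubiquitinase of the particle, at 0.097. BLM10 (0.0050) and STS1 (-0.018) were lowest. SEM1, a small lid subunit outside the naming rule, was not analysed here.

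Cdc48 is the ATPase that extracts ubiquitin-tagged proteins, and shuttle factors such as Rad23 bring them to the proteasome. None of the 9 genes of this list passed. RAD23 (-0.23) and CDC48 (-0.20) were lowest, and UFD4 (0.18) and DDI1 (0.17) highest. CDC48 read 0.25, -1.45, 0.50 and -0.11 on arrays 1 to 4, the alternation seen in RPN5 and RPN13, and was called higher on the unturned ratios (0.58, limma adjusted p = 0.0132).

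The ubiquitin genes lay on both sides of 0, with none of 7 past the test. UBI4, the stress-linked gene that encodes a chain of ubiquitin units, read 0.18, 0.42, 0.18 and 0.54 on arrays 1 to 4, a mean of 0.33 ± 0.18 (limma adjusted p = 0.371). RPL40A (-0.35 ± 0.39), RPS31 (-0.32 ± 0.39) and RPL40B (-0.25 ± 0.17), which encode ubiquitin fused to a ribosomal protein, were below 0 on every array. These genes share ubiquitin sequence, and RPL40A and RPL40B are near-identical, so their spots may share labelled cDNA. UBC5, a ubiquitin-conjugating enzyme gene very like UBC4, was highest at 0.34 ± 0.65. It read -0.16, 1.06, -0.25 and 0.70 on arrays 1 to 4, and on the unturned ratios it was called lower (-0.54, limma adjusted p = 0.0219).

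Of 7 genes that act on Rpn4, 5 were tested and none passed. PDR1 (0.22 ± 0.44) and PDR3 (0.20 ± 0.15), transcription factors of multidrug resistance that act on the RPN4 promoter, were highest, and PDR3 was positive on all arrays. RAD6, the conjugating enzyme of Rpn4 degradation, was lowest at -0.031 ± 0.60, followed by YAP1, the oxidative stress factor, at 0.072. UBR2 and HSF1 lacked a value on some arrays and were not tested.

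**Figure D4:**
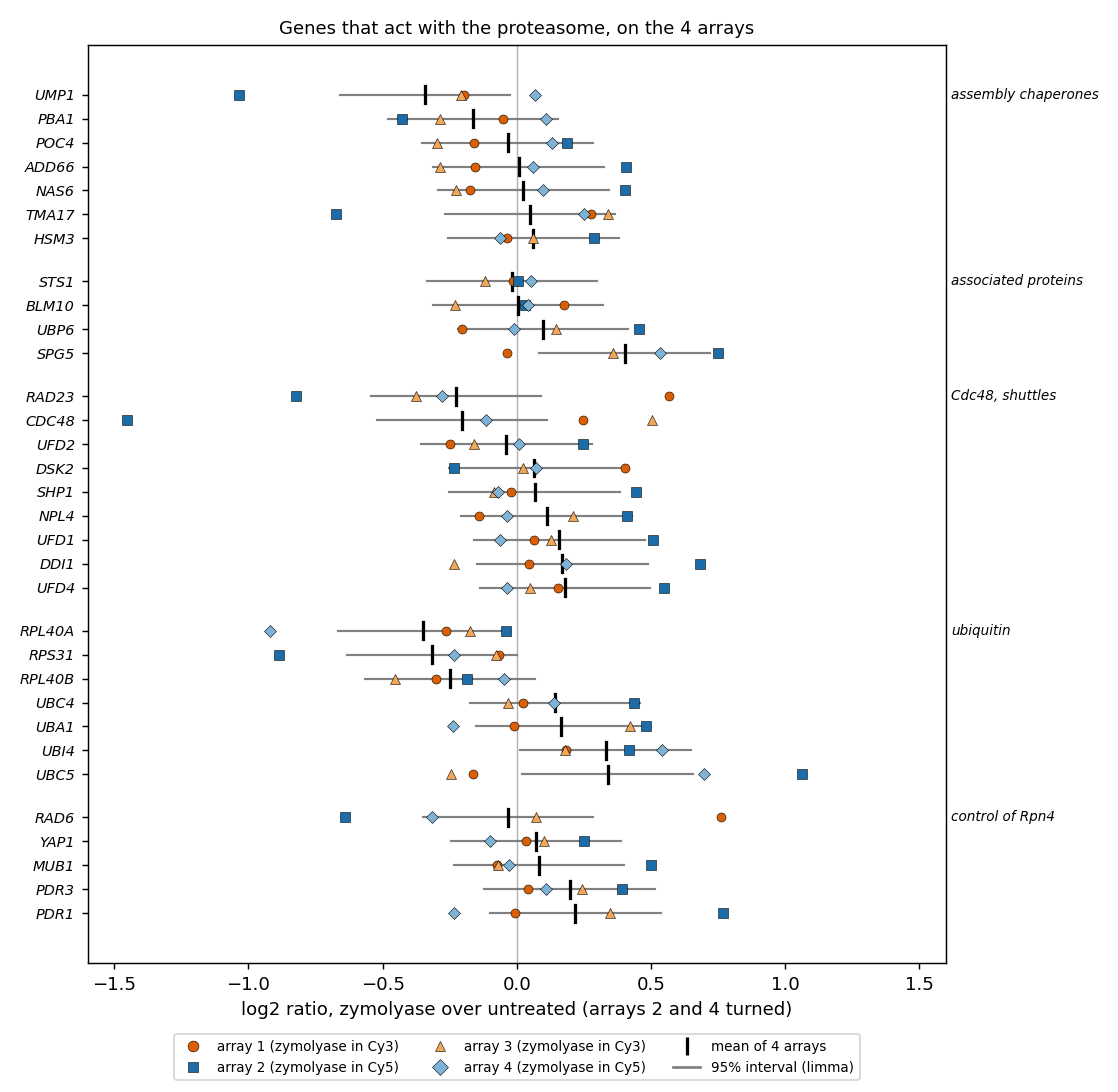
Log2 ratio of zymolyase over untreated (x axis) for the tested genes that act with the proteasome (rows, by list), drawn as in the plot of subunit genes. None passed the test. SPG5 and UBC5 lie highest, at 0.40 and 0.34, and RPL40A and UMP1 lowest, at -0.35 and -0.34.

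Some members lie close to each other in the genome. In the gene order of the reference table RPT4 and RPN8 have only GCD1 between them, and PRE4 and RPN12 only RET2. RPT4 and RPN8 alternated alike over the arrays, with means of -0.065 and -0.11, whereas PRE4 alternated the other way and RPN12 stayed below 0. With 2 such pairs no relation between position and value was tested.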

How the data were processed

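Total RNA was copied into Cy5- or Cy3-labelled cDNA and hybridised to 2-colour arrays, per the labels' protocols. The authors deposited 1 log ratio per feature and array, taken here as log2; no source used here gives the scanner, background correction, normalization or log base. No intensities were analysed, so the signal over background is unknown and precision rests on how many arrays there are. Of 6209 features, 2 controls were left out and 5711 matched a gene of the RefSeq R64 table, used for names and gene order only. Features of 1 gene were averaged. Genes with a value on all 4 arrays were tested.

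The arrays of a culture were averaged and tested against 0 (limma 3.58.1, R 4.3.3; lmFit, eBayes). Which arrays belong to the same culture is not in the labels, so both pairings (1 with 2 and 3 with 4; 1 with 4 and 2 with 3) were fitted and the larger adjusted p and standard error used. The script was tested on simulated data with the same noise on every array and 1 with 2 and 3 with 4 as the cultures. That simulation did not model the wider spread of array 2, so it does not show how the test behaves on these arrays. SDs are over 4 arrays from 2 cultures and mix dye, technical and culture differences. A mean without array 2 averages arrays 1, 3 and 4 equally, so dye differences do not cancel in it.

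The members and gene lists were chosen with earlier results of these data known. Every member is named. Values on each array are given for the 3 highest and 3 lowest means of each particle, the 3 largest SDs and RPN4, with some others singled out after their values were seen. Of each related list the highest and lowest means are named. A planned promoter motif search was not run. The alternatives were scaling of arrays, a dye term, genes missing on some arrays, no turning, 1 pairing alone and leaving out each array.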

Additional observations from a re-analysis of the deposited data

Results flagged for a closer look

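For 2 of the 34 genes examined (33 members and RPN4), 1 array lay far from the other 3 by Dixon's criterion. RPN6 read -0.16 on array 4, against 0.14 to 0.19 on the others. RPN1 read -0.33 on array 4, against 0.24 to 0.28. For 4 independent values from one normal distribution the criterion flags about 1 in 20 genes. These arrays differ in dye orientation and spread, and the share flagged among all genes was not computed.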

How the results depend on the processing

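No member passed under 10 of the 11 alternatives. The exception was taking the deposited ratios as already turned, where 5 did: PRE3 (0.59), PRE8 (0.63), RPT2 (0.51), RPN5 (0.66) and RPN13 (0.58), each with the sign opposite to its turned mean. There the core median was 0.057 and the regulatory particle median 0.18, both also of opposite sign. Core minus regulatory particle was -0.12, against 0.0031 after turning. CDC48 stood at 0.58 and UBC5 at -0.54, again opposite in sign to their turned means. The count of all genes past the test was 149, and 97 with arrays centred, 56 with arrays also scaled to one spread, 77 with a dye term, 8 with arrays averaged within each orientation and genes admitted with a value on at least 1 array of each, 316 with ratios taken as already turned and between 8 and 23 without 1 array, where dye effects no longer cancel; other causes were not tested. Without 1 array, weighted by culture, the core median ran from -0.11 to -0.0042, the regulatory particle median from -0.18 to 0.058, their difference from -0.072 to 0.071 and the RPN4 mean from 0.22 to 0.47; the sign of the regulatory particle median and of the difference is therefore not settled. RPN4 passed under none of the 11 alternatives. With 2 cultures, changes under a log2 size of 0.51 could not be called. The arrays form 1 group, and each array already pairs treated with untreated RNA of a culture, so no further pairing was added.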
